A study of Mus musculus with 10 samples.

Results

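The insulin-like growth factor (IGF) axis of inguinal white adipose tissue (iWAT), the subcutaneous fat pad of the groin, was examined through 9 genes chosen by name: the growth hormone receptor Ghr, the ligand Igf1, its receptor Igf1r, and the binding protein genes Igfbp2, Igfbp3, Igfbp4, Igfbp5, Igfbp6 and Igfbp7. All 9 were found among the 51826 genes listed. RNA-seq of total RNA depleted of ribosomal RNA had been done on iWAT of C57BL/6 male mice, with 1 library per mouse and 10 libraries in all. Fathers' generation (F0) males ate a control diet (CD) or a low protein diet (LPD) from weaning and were sampled at 10 to 12 weeks of age (F0-CD and F0-LPD, 2 mice each). Male offspring (F1) of CD-fed or LPD-fed fathers were sampled at 5 weeks (F1-CD and F1-LPD, 3 mice each), and these offspring and their mothers had eaten the CD. The labels name no allele beyond the strain, and the offspring of a group came from 3 different mothers. Generation, age and direct or paternal feeding coincide and cannot be told apart.

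Growth hormone acts through its receptor on the kinase Jak2 and on Stat5 proteins, which switch on Igf1 in liver and, for local use, in tissues such as fat. IGF1 then binds its own receptor, which signals through the docking proteins and lipid kinases that the insulin receptor also uses. Binding proteins in the blood and in the matrix hold IGFs, prolong their life and limit or focus their access to the receptor. Adipose tissue is a source of circulating IGF1, and preadipocytes and stromal cells respond to it more than mature adipocytes, which carry few IGF1 receptors.

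Exon reads per library ranged from 6351075 to 10044546, so that 3 reads equalled 0.299 to 0.472 CPM, the counts of a gene scaled to the library's exon reads. Exons took 51.5 to 58.5% of the reads on genes in F1-LPD and 60.6 to 63.6% in the other groups, and the 2 mitochondrial ribosomal RNAs took 13.5 to 18.2% in F1-LPD against 9.29 to 12.4% elsewhere. Markers of adipocytes (10 of 10 genes found) summed to 16729 to 23353 CPM over the 10 mice. Summed skeletal muscle markers (9 genes) lay between 1709 and 2661 CPM in F0-CD, between 807 and 1115 CPM in F0-LPD, and between 47.6 and 197 CPM in F1. Macrophage markers (7 genes) summed to 771 to 810 CPM in F0-CD, 665 to 684 in F0-LPD, 707 to 862 in F1-CD and 464 to 583 in F1-LPD. In such bulk tissue, fewer cells of a type and less RNA per cell cannot be told apart.

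Coordinates are those of mm10. Igf1 (ENSMUSG00000020053) lies on chromosome 10 from 87858265 to 87937042 on the plus strand, with 20 annotated exons in 8 transcripts, and the antisense gene Igf1os overlaps its first 5117 bases. Between 94.1 and 97.0% of the Igf1 exon reads in a mouse matched uniquely. Ghr (ENSMUSG00000055737) spans chromosome 15 from 3317760 to 3583492 on the minus strand and Igf1r (ENSMUSG00000005533) chromosome 7 from 67952827 to 68233668 on the plus strand. Igfbp2 (ENSMUSG00000039323, chromosome 1, 72824503 to 72852474, plus strand) and Igfbp5 (ENSMUSG00000026185, 72857932 to 72874884, minus strand) lie tail to tail, 5457 bases apart. Igfbp3 (ENSMUSG00000020427) is on chromosome 11 from 7206086 to 7213923 (minus), 3539 bases from Igfbp1, and Igfbp4 (ENSMUSG00000017493) on the same chromosome from 99041244 to 99054392 (plus). Igfbp6 (ENSMUSG00000023046) is the most compact member, with 4 exons on chromosome 15 from 102144362 to 102149511 (plus). Igfbp7 (ENSMUSG00000036256) runs on chromosome 5 from 77349240 to 77408041 (minus) and shares 85 bases at its end with Polr2b, which had 402 to 718 exon reads per mouse. The antisense gene Gm34648, for which no count was available, overlaps 7085 bases of Igfbp7.

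The promoters of 4 binding protein genes are printed because Igfbp6, Igfbp7 and Igfbp4 had the largest fitted exon changes of the 8 members tested in LPD-fed males, and Igfbp2 that of the 9 tested in the offspring. Each is a RefSeq window of GRCm38.p6 from 250 bases before to 50 bases after its RefSeq start, 300 bases in all. Capitals mark every match, on either strand, to TATAAA, TTCNNNGAA (a Stat-type palindrome), CACGTG (an E-box) or GGGCGG (a GC box), which could overlap each other.
Igfbp2 (chr1:72824230-72824529, + strand): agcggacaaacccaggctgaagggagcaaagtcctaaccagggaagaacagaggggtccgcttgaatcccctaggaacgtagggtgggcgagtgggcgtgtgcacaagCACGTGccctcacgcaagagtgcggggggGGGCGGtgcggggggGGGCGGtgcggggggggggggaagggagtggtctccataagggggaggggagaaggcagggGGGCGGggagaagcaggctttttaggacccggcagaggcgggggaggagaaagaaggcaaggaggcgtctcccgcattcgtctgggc
Igfbp4 (chr11:99040994-99041293, + strand): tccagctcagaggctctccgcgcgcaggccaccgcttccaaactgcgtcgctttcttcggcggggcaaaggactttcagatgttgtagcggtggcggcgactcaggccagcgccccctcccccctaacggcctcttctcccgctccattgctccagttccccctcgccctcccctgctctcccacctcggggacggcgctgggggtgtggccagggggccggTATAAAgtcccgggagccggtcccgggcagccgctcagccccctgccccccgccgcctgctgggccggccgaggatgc
Igfbp6 (chr15:102143936-102144235, + strand): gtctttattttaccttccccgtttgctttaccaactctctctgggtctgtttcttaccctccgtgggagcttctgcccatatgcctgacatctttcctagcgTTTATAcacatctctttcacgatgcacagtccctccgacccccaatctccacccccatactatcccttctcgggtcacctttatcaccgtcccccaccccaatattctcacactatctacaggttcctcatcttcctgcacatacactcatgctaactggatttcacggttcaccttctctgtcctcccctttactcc
Igfbp7 (chr5:77407996-77408295, - strand): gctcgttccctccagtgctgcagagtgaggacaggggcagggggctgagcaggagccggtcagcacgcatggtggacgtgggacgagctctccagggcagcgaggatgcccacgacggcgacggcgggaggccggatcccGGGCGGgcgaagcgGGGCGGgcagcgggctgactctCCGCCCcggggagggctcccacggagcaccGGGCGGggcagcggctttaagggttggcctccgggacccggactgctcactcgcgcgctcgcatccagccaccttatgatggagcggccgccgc
The Igfbp4 window held a TATAAA that starts 28 bases before the RefSeq start, and the Igfbp6 window held 1 on the opposite strand at position -148. That Igfbp6 window ends before the start of the gene in the deposited annotation. Igfbp7 had 4 GC boxes between positions -110 and -44, and the printed Igfbp2 window had 3 GC boxes and 1 E-box. A second RefSeq window of Igfbp2 (chr1:72825137-72825436), not printed, held none of the 4 motifs and had 57.3% GC. Of 32851 RefSeq promoter windows of this length, 13.6% held TATAAA, 8.3% the Stat-type palindrome, 7.15% the E-box and 35.7% the GC box. GC content of the printed windows was 73.3% for Igfbp7, 71.3% for Igfbp4, 67.0% for Igfbp2 and 49.7% for Igfbp6, beside a median of 52.7% over all windows. The Igf1 window, which lies inside the gene span of the deposited annotation, held none of the 4 motifs and had 52.3% GC.

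Expressed per kilobase of exon so that genes could be set side by side, Igfbp7 had the highest level of the 9 genes in each group and Igfbp2 the lowest. Mean Igfbp7 was 200 ± 3.39 CPM per kb in F0-CD (SD, n = 2), 148 ± 3.77 in F0-LPD (n = 2), 245.9 ± 29.97 in F1-CD (n = 3) and 270 ± 32.05 in F1-LPD (n = 3). Ghr, Igfbp4 and Igfbp5 took ranks 2 to 4 in an order that changed between groups, and several of these neighbours overlapped. In F0-CD the ranges of Igfbp4 and Ghr overlapped, in F0-LPD those of Igfbp7 and Ghr and those of Igfbp5 and Igfbp4, in F1-CD those of Igfbp5, Ghr and Igfbp4, and in F1-LPD those from Ghr through Igfbp4 and Igfbp5 to Igfbp6. Igfbp6 was the fifth, Igf1 the sixth at 34.7, 37.9, 27.9 and 21.5 CPM per kb in F0-CD, F0-LPD, F1-CD and F1-LPD, Igfbp3 the seventh and Igf1r the eighth. Igfbp2 reached 1.39 CPM per kb in F1-LPD at most as a group mean, and 3 to 27 exon reads in any mouse.

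**Figure D1:**
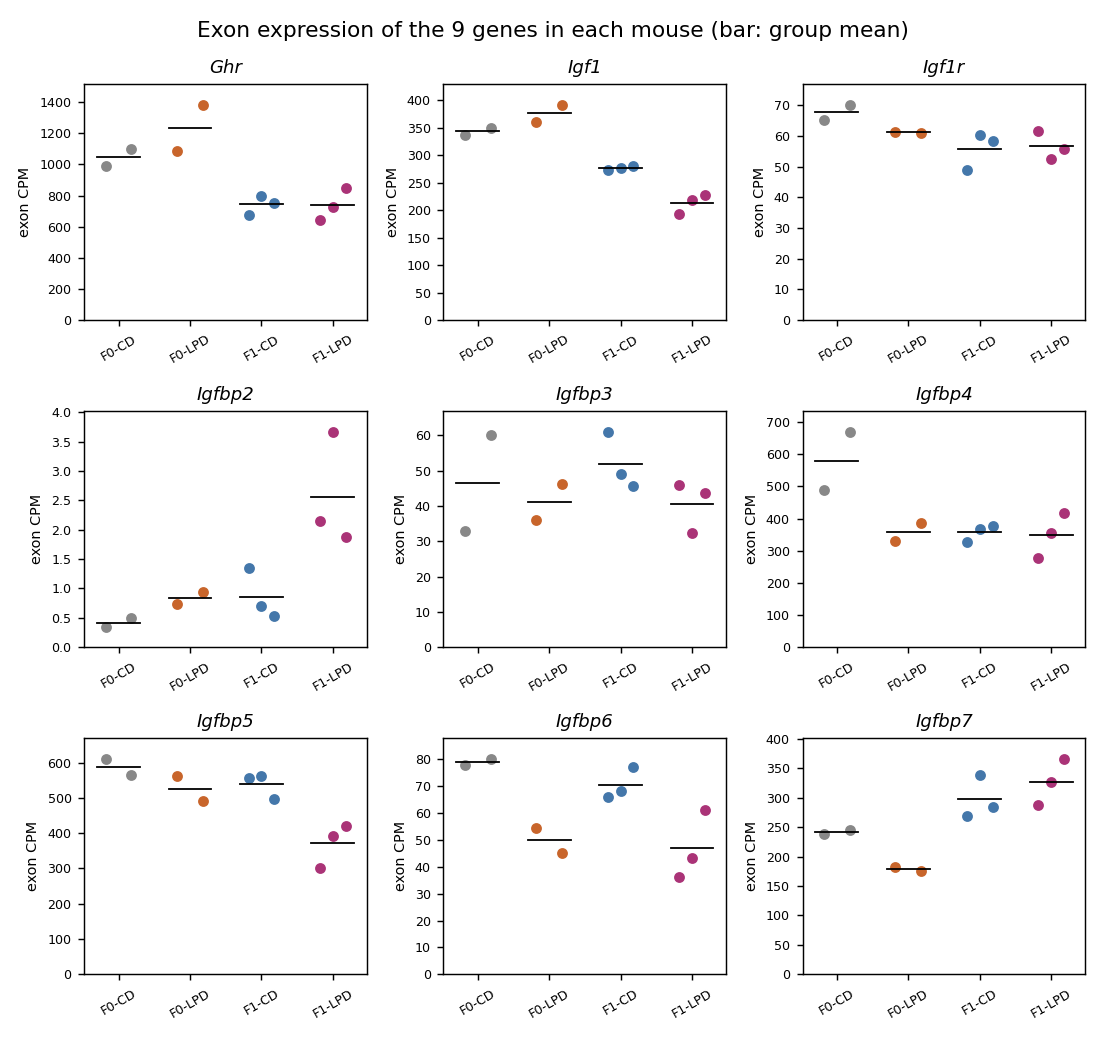
Exon CPM (vertical axes, each from 0) of the 9 genes in each of the 10 mice, by group, with a bar at the group mean. Igf1 and Igfbp5 of the 3 F1-LPD mice lie below all 3 F1-CD mice, and Igfbp6 and Igfbp7 of both F0-LPD mice lie below both F0-CD mice.

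To learn whether the father's diet was followed by a change of the axis in his sons, F1-LPD was compared with F1-CD. Igf1, Igfbp5 and Igfbp6 had lower exon levels in all 3 F1-LPD mice than in any F1-CD mouse, and Igfbp2 had higher ones, but none of the 9 genes passed an adjusted p of 0.05 in edgeR, where 1.17% of 14049 genes did. The unadjusted p was under 0.05 for 5 members, as it was for 15.3% of all genes tested, and 4 of 9 had groups that did not overlap, as did 20.1% of all genes (10.9% lower and 9.21% higher). The median log2 change of the members was -0.03, beside 0.01 over all genes.

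Igf1, the ligand, measured 273, 277 and 279 CPM in the F1-CD mice and 193, 218 and 228 CPM in the F1-LPD mice. The 3 control values were within 6 CPM of each other, and each F1-LPD value was lower. The log2 change was -0.37 ± 0.09 (SE, adjusted p = 0.0703 by edgeR), a 1.29-fold lower level. DESeq2 on the same reads gave an adjusted p of 0.0193, whereas once edgeR was given the libraries' exon shares as a covariate it was 0.695. Exon shares were 51.5 to 58.5% in F1-LPD and 60.6 to 62.3% in F1-CD, without overlap. Fits with this covariate, here and below, therefore cannot tell the exon share and the father's diet apart. Macrophage markers were lower in F1-LPD as well, with 4 of 7 called, and summed progenitor and fibroblast markers (10 genes, none called, all 10 with negative changes) lay at 10367 to 13077 CPM against 14356 to 23902 CPM in F1-CD. Their part in the Igf1, Igfbp5 and Igfbp6 differences was not tested.

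Neither receptor gene passed the test. Ghr, which passes the growth hormone signal, measured 676, 798 and 755 CPM in F1-CD and 644, 726 and 851 CPM in F1-LPD, with a log2 change of 0.00 ± 0.12 (adjusted p = 0.993, edgeR). Igf1r measured 48.8, 60.3 and 58.2 CPM against 61.7, 52.6 and 55.6 CPM, with a log2 change of 0.03 ± 0.11 (adjusted p = 0.931, edgeR). The groups overlapped for both genes.

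Among the binding proteins, Igfbp5, which also attaches to extracellular matrix, had 555, 563 and 496 CPM in F1-CD and 301, 393 and 421 CPM in F1-LPD. These ranges were apart, and the log2 change was -0.52 ± 0.12 (adjusted p = 0.0680, edgeR; 0.00257 with DESeq2 and 0.776 with the exon share as a covariate). Igfbp6, whose protein prefers IGF2 over IGF1, had 66.1, 68.1 and 77.1 CPM in F1-CD and 36.3, 43.4 and 61.3 CPM in F1-LPD. The third F1-LPD mouse came close to the controls. The log2 change of -0.58 ± 0.16 had an adjusted p of 0.108 in edgeR and of 0.0287 in DESeq2. In edgeR the adjusted p became 0.0214 without the third F1-LPD mouse and 0.897 with the exon share as a covariate. Igfbp2, which leptin and insulin are known to regulate, had 10, 6 and 4 exon reads in F1-CD and 14, 27 and 12 in F1-LPD. With so few reads the difference had a wide error (log2 change 1.59 ± 0.48, adjusted p = 0.145, edgeR).

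Igfbp3, the main carrier of IGF1 in serum, measured 60.9, 49.1 and 45.7 CPM against 45.9, 32.3 and 43.8 CPM in F1-LPD. Its groups overlapped by 1 mouse of each (log2 change -0.35 ± 0.14, adjusted p = 0.285, edgeR). Igfbp4, an inhibitor that the protease Pappa cleaves, had 329, 368 and 378 CPM against 276, 354 and 418 CPM, a log2 change of -0.03 ± 0.13. Igfbp7, a low-affinity relative of the other binding proteins, had 269, 338 and 284 CPM against 288, 327 and 365 CPM, a log2 change of 0.14 ± 0.11. Neither of the last 2 genes separated the groups, with adjusted p of 0.952 and 0.596 in edgeR.

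**Figure D2:**
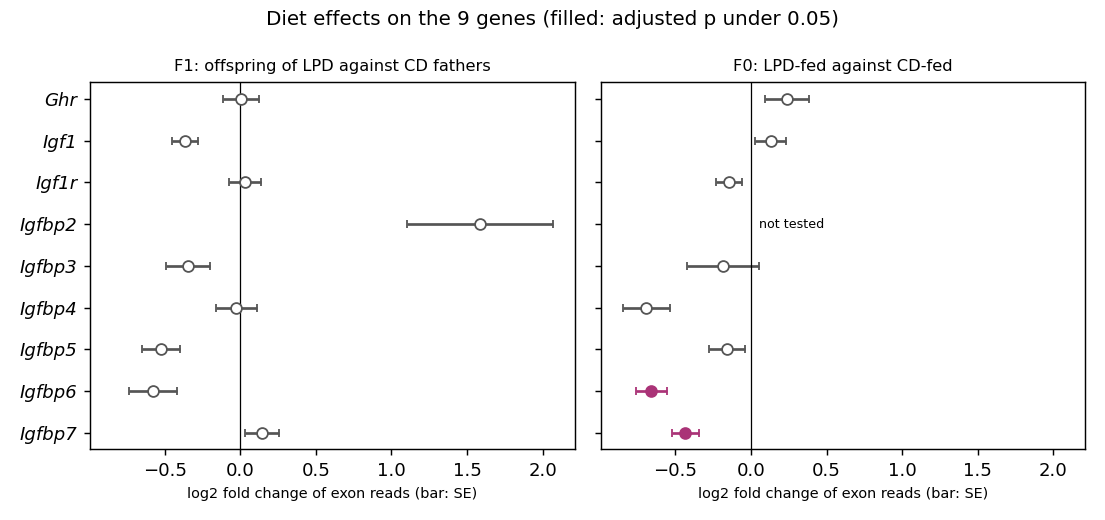
Log2 fold change of exon reads (horizontal axes, point and SE) of the 9 genes with the father's diet in F1 (left) and with the mouse's own diet in F0 (right), filled where the edgeR adjusted p was under 0.05. The filled points are Igfbp6 (-0.66) and Igfbp7 (-0.44) in F0, and Igfbp2 was not tested in F0.

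In the males that ate the LPD themselves, the exon levels of Igfbp6 and Igfbp7 fell, 2 of the 8 members tested, where 2.5% of 14581 genes were called in either direction and 1.32% as lower. Of the 8 members, 6 had groups that did not overlap, but with 2 mice against 2 so did 46.5% of all genes. The members' median log2 change was -0.17, beside 0.00 over all genes.

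Igfbp6 measured 77.8 and 79.9 CPM in F0-CD and 54.3 and 45.3 CPM in F0-LPD. Both LPD-fed mice were below both controls by more than the spread within either pair, with a log2 change of -0.66 ± 0.10 (adjusted p = 0.0189, edgeR), or 1.58-fold. The call was lost without the second F0-LPD mouse (adjusted p = 0.0824) and when all 4 groups shared 1 fit (0.104). Igfbp7 measured 239 and 244 CPM in F0-CD and 182 and 175 CPM in F0-LPD, a log2 change of -0.44 ± 0.09 (adjusted p = 0.0456, edgeR). It also lay just inside the threshold: leaving out any of the 4 mice gave adjusted p between 0.0649 and 0.217, with changes between -0.47 and -0.41.

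Igfbp4 measured 489 and 669 CPM in F0-CD and 332 and 385 CPM in F0-LPD. The groups were apart, but the 2 controls differed more from each other than the LPD-fed mice did, and the log2 change of -0.69 ± 0.16 had an adjusted p of 0.0591 in edgeR and of 0.00162 in DESeq2. Igfbp5 (609 and 565 against 562 and 491 CPM) and Igfbp3 (32.8 and 60.0 against 36.1 and 46.1 CPM) had log2 changes of -0.16 ± 0.12 and -0.19 ± 0.24, neither of them called. Igfbp2 had 3 and 5 reads in F0-CD and 7 and 8 in F0-LPD, too few for the filter on low counts, and was not tested. Skeletal muscle markers were lower in F0-LPD too (6 of 9 called), as were summed macrophage markers. Smooth muscle and pericyte markers (6 genes) summed to 499 to 513 CPM in F0-LPD and 574 to 617 CPM in F0-CD. Of these 6 genes, 5 had negative changes and 1 a positive one, 1 was called lower, and the median log2 change was -0.44. The part of all these markers in the binding protein changes was not tested.

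Igf1 exon reads gave 337 and 350 CPM in F0-CD and 361 and 391 CPM in F0-LPD, slightly higher in both LPD-fed mice (log2 change 0.13 ± 0.10, adjusted p = 0.612, edgeR). Ghr gave 993 and 1098 CPM against 1086 and 1382 CPM, with overlap (0.24 ± 0.15, adjusted p = 0.508). Igf1r gave 65.3 and 70.0 CPM against 61.3 and 61.1 CPM (-0.15 ± 0.09, adjusted p = 0.478). None of these 3 genes at the head of the axis passed the test. Exact two-sided permutation tests of single genes could not go below 0.3333 here, nor below 0.1 in F1.

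The clearest difference of the axis appeared in reads that fell in introns, which this ribosomal-depleted total RNA retains and which come largely from transcripts not yet spliced. Intron reads of Igf1 were 4.35-fold lower in LPD-fed F0 males while its exon reads were not lower. These counts numbered 3492 and 3205 in F0-CD and 690 and 751 in F0-LPD, or 579 and 498 against 109 and 138 intron CPM (scaled to the library's intron reads). Per exon read, Igf1 had 1.16 and 0.916 intron reads in F0-CD and 0.201 and 0.225 in F0-LPD. Both LPD-fed mice were far below both controls and also below all 6 offspring, whose ratios ran from 0.352 to 0.697.

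The test of intron reads was added after these counts had been seen. In it the log2 change of Igf1 was -2.12 ± 0.12 (adjusted p = 4.53e-05, edgeR), with 3.48% of 14334 genes called and 2.12% as lower. Without each of the 4 mice in turn it was called at -2.29 to -1.96, but each such fit sets 1 mouse against 2, and the lone mouse is assumed to vary like the other group. A fit of the difference between the intron and the exon change, with the mouse as a block, gave -2.25 ± 0.11 (adjusted p = 5.53e-17), the lowest p of the 12694 genes tested, of which 3.92% were called and 2.51% as lower. That p rests on a variance shared across genes and on 2 mice per group. When exon and intron reads were added together, the Igf1 change became -0.60 (adjusted p = 0.0372), so that the sign of the Igf1 result in F0 depended on which reads were counted.

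The antisense gene Igf1os had 26 and 56 intron reads in F0-CD and 32 and 29 in F0-LPD, far fewer than Igf1 itself, and its log2 change was -0.33 ± 0.34 (adjusted p = 0.734, edgeR). Because it is not known whether counting used strand, these counts cannot show how many Igf1 intron reads were antisense. Summed skeletal muscle markers were also lower in F0-LPD (807 to 1115 CPM) than in F0-CD (1709 to 2661 CPM), and their part in the Igf1 intron difference was not tested. The exon share of reads was alike in the F0 groups, at 62.1 to 63.6% and 62.4 to 63.4%.

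**Figure D3:**
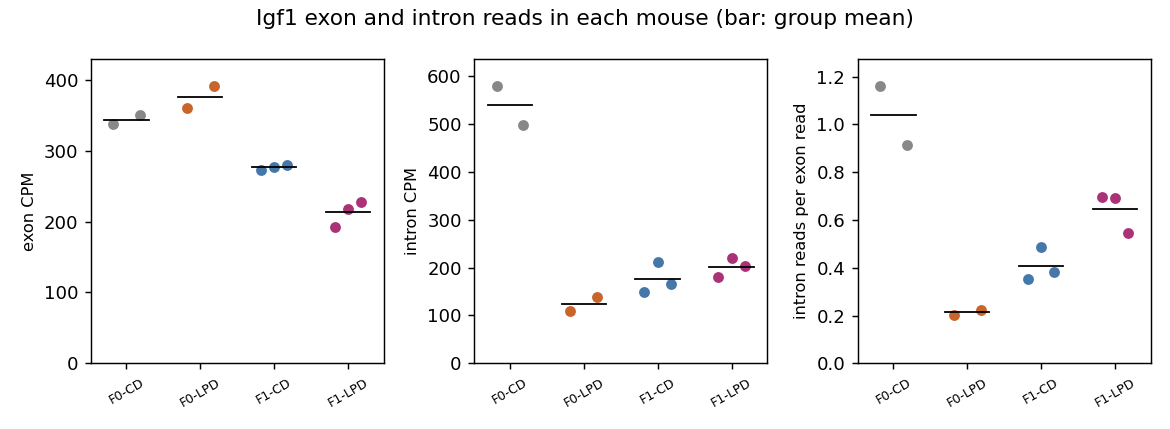
Igf1 exon CPM, intron CPM and intron reads per exon read (vertical axes, from left to right) in each mouse by group, with a bar at the group mean. Intron CPM is 579 and 498 in the F0-CD mice and between 109 and 221 in the other 8 mice, whereas exon CPM is as high in F0-LPD as in F0-CD.

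For no other member was the intron change called as different from the exon change in F0. Ghr, 76.1 to 78.6% of whose reads were intronic in the F0 mice, had a log2 intron change of 0.25 ± 0.13 and a difference from its exon change of 0.00 ± 0.11. Igfbp7 fell in introns (-0.54 ± 0.08, adjusted p = 0.00480, edgeR) as in exons, with 1425 and 1516 intron reads in F0-CD and 1023 and 879 in F0-LPD and a difference from the exon change of -0.10 ± 0.10 (adjusted p = 0.746). Igfbp4 introns changed by -0.51 ± 0.15 (adjusted p = 0.122), close to its exon change of -0.69. Introns of Igfbp3, Igfbp5 and Igfbp6 gathered 18 to 184 reads per mouse in F0 and none was called. Igfbp6, called lower in exons, had 18 to 36 intron reads and an intron change of -0.02 ± 0.36. Its difference from the exon change was 0.64 ± 0.31 (adjusted p = 0.343, edgeR).

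In F1 the Igf1 intron and exon changes had opposite signs, and neither change nor their difference passed the test. Intron reads per exon read were 0.352, 0.487 and 0.382 in F1-CD and 0.697, 0.693 and 0.547 in F1-LPD, without overlap. Intron reads themselves gave 149, 212 and 166 CPM against 180, 221 and 203 CPM (log2 change 0.20 ± 0.12, adjusted p = 0.516, edgeR), and the difference from the exon change was 0.57 ± 0.12 (adjusted p = 0.0781). Igfbp5 gave a like difference, 0.57 ± 0.15 (adjusted p = 0.195), with mean intron levels of 24.7 CPM in F1-CD and 25.8 CPM in F1-LPD. No member was called in either intron test, where 0.424% of 13456 and 0.116% of 12035 genes were, and 1 and 3 members had an unadjusted p under 0.05, as did 13.8% and 7.48% of all genes. The share of all gene reads in exons was also lower in F1-LPD, and its part in these ratios was not tested.

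The difference between the generations was tested directly in all 10 libraries. In exon reads no member was called, where 1.25% of 15111 genes were, and 3 members had an unadjusted p under 0.05, as did 12.5% of all genes. Igf1 came nearest (F1 change minus F0 change -0.51 ± 0.13, adjusted p = 0.0799, edgeR; 0.0181 in DESeq2), followed by Igfbp7 at 0.57 ± 0.17 (adjusted p = 0.128; 0.0446 in DESeq2) and Igfbp4 at 0.66 ± 0.23 (adjusted p = 0.231). For Igfbp6, lower in LPD groups of both generations, the difference was 0.08 ± 0.23. In intron reads Igf1 was the 1 member called, at 2.32 ± 0.20 (adjusted p = 7.41e-05, edgeR), beside 1.28% of 14823 genes and 0.715% in that direction.

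The other genes of the pathway gave a background for these members. Of 12 other IGF axis genes, 13 of growth hormone signalling and 21 of signalling shared by the insulin and IGF1 receptors, 10, 13 and 21 were tested in exon reads, and none was called in F1 or in F0 by edgeR. Their median log2 changes were -0.10, 0.01 and -0.02 in F1 and -0.10, -0.02 and 0.02 in F0, near 0.01 and 0.00 over all genes, with 3, 2 and 6 genes at an unadjusted p under 0.05 in F1 and 3, 6 and 5 in F0, where 15.3% and 15.7% of all genes had one. Igfals, the acid-labile subunit that joins IGF1 and Igfbp3 in a ternary complex, measured 49.9 and 39.5 CPM in F0-CD, 31.5 and 27.8 in F0-LPD, 37.4, 38.2 and 45.6 in F1-CD and 20.2, 34.7 and 34.1 in F1-LPD. Each LPD group was below its control group, with log2 changes of -0.58 ± 0.13 (adjusted p = 0.0587) and -0.43 ± 0.18 (adjusted p = 0.283) in F0 and F1. Igf2, the fetal ligand, had 19 to 68 reads per mouse and changes of -0.94 ± 0.32 in F0 (adjusted p = 0.190) and -0.02 ± 0.29 in F1. Igf2r, which clears IGF2, and Insr changed by 0.06 ± 0.09 and 0.00 ± 0.12 in F0 and by -0.06 ± 0.08 and 0.23 ± 0.08 in F1, none of them called. Igfbp1 had 0 to 2 exon reads in each mouse.

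In intron reads of F0, 6 of these pathway genes were called, all of them lower in F0-LPD: 1 of 8 tested IGF axis genes, 2 of 12 growth hormone genes and 3 of 21 receptor genes, beside 3.48% of all genes called in either direction and 2.12% as lower. Cish and Socs2, feedback inhibitors that Stat5 induces after growth hormone, changed by -2.13 ± 0.40 (adjusted p = 0.0205) and -0.74 ± 0.14 (adjusted p = 0.0230) in edgeR. Cish rested on 27 and 30 intron reads in F0-CD against 6 and 6 in F0-LPD, and its exons were at 92.7 and 65.3 against 43.7 and 56.4 CPM (-0.66 ± 0.17, adjusted p = 0.0903). Of the Cish exon reads, 50.4 and 50.6% in F0-CD and 43.5 and 37.3% in F0-LPD matched uniquely. Its intron call was lost without the second F0-CD mouse (0.0603) and without either F0-LPD mouse (0.111 and 0.0848), and that of Socs2 without the second F0-LPD mouse (0.122).

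Pik3r1, a regulatory subunit of the lipid kinase that both receptors use, was the closest to Igf1. Its intron counts were 6669 and 7611 in F0-CD and 2935 and 2432 in F0-LPD, a log2 change of -1.32 ± 0.08 (adjusted p = 4.63e-05, edgeR), with exon levels of 664 and 793 against 715 and 740 CPM and an exon change of 0.00 ± 0.13. Irs1, a docking protein of both receptors, Grb10, an adaptor that restrains them, and Stc2, an inhibitor of Pappa, had intron changes of -0.46 ± 0.08, -0.50 ± 0.09 and -0.91 ± 0.20 (adjusted p = 0.0131, 0.0197 and 0.0372), and their exon changes of -0.36, -0.31 and -0.30 pointed the same way without a call. The Irs1 call was lost without the second F0-LPD mouse (log2 change -0.40) and the Grb10 call without the first F0-LPD mouse (-0.40). The Stc2 call was lost without the second F0-CD mouse (-0.78) and without the first F0-LPD mouse (-0.71). DESeq2 gave adjusted p of 0.0980 for Socs2 and 0.128 for Stc2.

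The difference between intron and exon changes in F0 was called for Pik3r1 (-1.32 ± 0.10, adjusted p = 7.78e-12, edgeR) and Cish (-1.48 ± 0.42, adjusted p = 0.0317). Dropping a single mouse ended the Cish call for 3 of the 4 mice (adjusted p = 0.132 to 0.224). It was also called for Ptpn1, a tyrosine phosphatase that acts on Jak2 and the insulin receptor (-0.36 ± 0.10, adjusted p = 0.0365), and in the opposite direction for the adaptor Sh2b2 (0.49 ± 0.13, adjusted p = 0.0197). The Ptpn1 call was lost whichever of the 4 mice was dropped (adjusted p = 0.0750 to 0.178), and the Sh2b2 call without the first F0-CD mouse (0.370) or the second F0-LPD mouse (0.146). For these 2 genes the intron changes themselves were -0.06 and 0.04. In F1 edgeR called no gene of the 3 lists in introns, where 0, 1 and 5 genes had an unadjusted p under 0.05, or in the intron against exon test, where 0, 0 and 1 had.

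**Figure D4:**
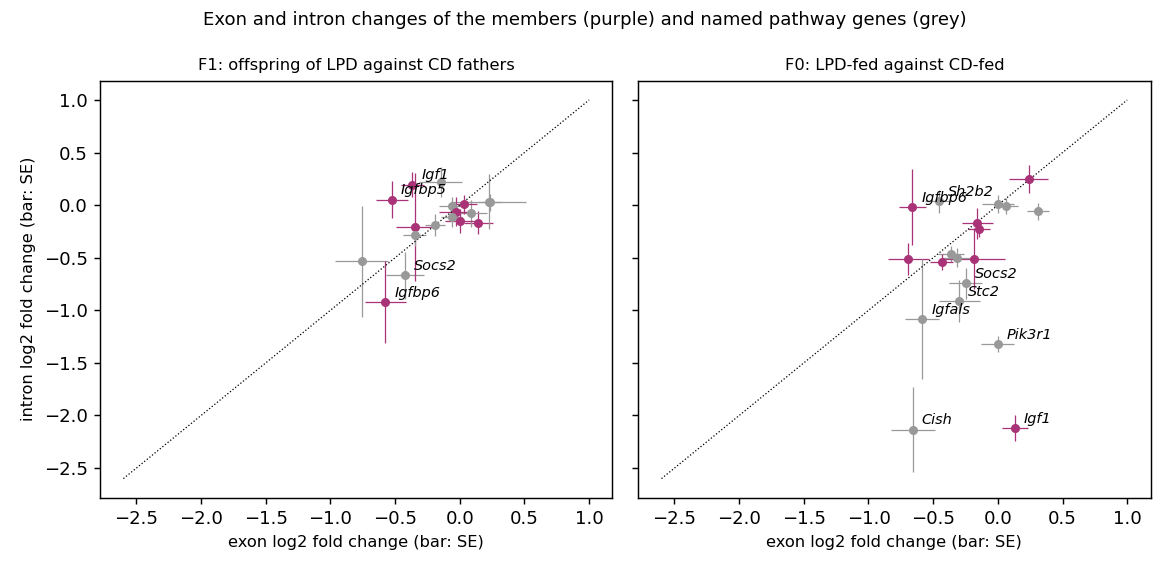
Intron log2 fold change (vertical axes, with SE) against exon log2 fold change (horizontal axes, with SE) of the members in purple and the named pathway genes in grey, in F1 (left) and F0 (right), with a dotted line where both are equal. In F0, Igf1 lies at an intron change of -2.12 and an exon change of 0.13, and Pik3r1 also lies below the line.

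The control mice of both ages gave the members' levels without the low protein diet. Igfbp4, Ghr and Igf1 were higher in F0-CD than in F1-CD, 3 of 9 members, where 8.78% of 15111 genes were called as higher and 18.9% in all. Their log2 differences were 0.69 ± 0.16 (adjusted p = 0.00998), 0.49 ± 0.14 (adjusted p = 0.0242) and 0.31 ± 0.09 (adjusted p = 0.0316) in edgeR. None of the 3 calls was kept without the second F0-CD mouse, where the adjusted p were 0.195, 0.206 and 0.213. Igf1r (0.28 ± 0.10, adjusted p = 0.0827) and Igfbp7 (-0.30 ± 0.12, adjusted p = 0.0941) came next. Adipocyte markers summed to 21832 to 23353 CPM in F0-CD and 16729 to 19483 CPM in F1-CD. Of the 10 adipocyte genes, 5 were called higher in F0-CD and 0 lower, with a median log2 difference of 0.41. Of 6 smooth muscle and pericyte markers, 3 were called higher and 0 lower, with a median of 0.51. Skeletal muscle markers were higher in F0-CD in 9 of 9 genes, and progenitor and fibroblast markers summed to 3606 to 4457 CPM there against 14356 to 23902 CPM in F1-CD. Of these 10 markers 4 were called lower and 1 higher in F0-CD, with a median log2 difference of -0.13. The collagen genes Col1a1 and Col3a1 had 6618 to 89458 and 11227 to 104947 exon reads over the 10 mice, and the most abundant of the other 8 markers, Dcn, 2774 to 9719. The part of these markers in the differences was not tested.

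The 6 binding protein genes summed to 370 to 539 CPM per kb in the 10 mice. Of the summed CPM per kb of the 6 binding protein genes, Igfbp7 took 38.9% ± 1.95 in F0-CD (SD, n = 2), 39.4% ± 0.27 in F0-LPD (n = 2), 49.4% ± 2.64 in F1-CD (n = 3) and 57.9% ± 1.69 in F1-LPD (n = 3). Igfbp5 took 18.1% ± 1.45 in F1-CD and 13.2% ± 0.73 in F1-LPD, and Igfbp6 took 12.8% ± 1.39 and 8.93% ± 1.16. Igfbp4 took 25.3% ± 3.88 in F0-CD and 16.3% ± 1.06 in F1-CD. These shares sum to 100% in each mouse, so they do not move independently, and they were given no test.

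**Figure D5:**
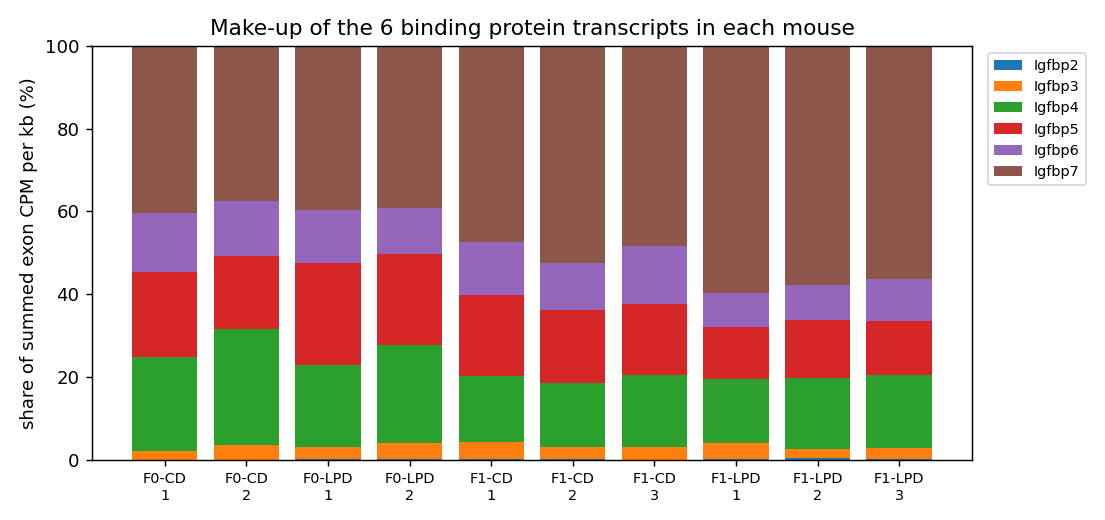
Share of each of the 6 binding protein genes in their summed exon CPM per kb (vertical axis, percent) in each mouse (horizontal axis, group and replicate). Igfbp7 takes 37.5 to 40.3% in the F0 mice, 47.5 to 52.4% in F1-CD and 56.3 to 59.6% in F1-LPD.

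Set against the ligand, the summed binding proteins (CPM per kb) were 14.4 and 15.3 times Igf1 in F0-CD and 10.4 and 9.37 times in F0-LPD. In the offspring they were 17.0, 19.1 and 17.3 times Igf1 in F1-CD and 20.5, 21.2 and 23.3 times in F1-LPD. The ratio was thus lower in both LPD-fed males than in their controls and higher in all 3 sons of LPD-fed fathers than in theirs. It is a ratio of transcripts and was given no test. For comparison, exon levels of the groups did not overlap for 46.5% of all genes in F0 and 20.1% in F1. Igfbp7, the low-affinity relative, made up 37.5 to 40.3% of the sum in F0 mice and 47.5 to 59.6% in F1 mice.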

How the data were processed

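The authors prepared libraries with a directional kit after depletion of ribosomal RNA, aligned them with CLC Genomics Workbench (mouse mm10), and deposited 1 table per mouse with counts of exon, intron and junction reads per gene, together with RPKM and TPM values that the authors computed from them. RPKM and TPM columns were not used in tests. Whether counting used strand is not given in the sources used here, so antisense reads may be among the Igf1 and Igfbp7 counts.

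Exon counts were tested in R 4.3.3 with edgeR 4.0.16 (quasi-likelihood test, filterByExpr, TMM, two-sided, Benjamini-Hochberg adjustment over all genes tested, threshold 0.05), within F1 (3 against 3), within F0 (2 against 2), and over all 10 libraries for the generation-by-diet difference and for F0-CD against F1-CD. Intron reads were tested in the same way, scaled to intron reads, and against exon reads with the mouse as a block; these tests were chosen after the data had been seen. Levels are CPM with TMM over all 10 libraries, per kb of exon where genes are compared. Exact permutation tests used log2(CPM + 0.5). DESeq2 1.42.0, other normalization, filters, read classes, sample sets and each mouse left out were alternatives. The tests were also run on simulated counts with larger changes than most members showed in exons and the same spread in all genes. That check does not cover small changes or genes with few reads. Total exon reads of 6351075 to 10044546 set the counting precision. The 3-read floor covers counting error only, whereas the SDs and SEs given include the spread between mice. Each library is a separate mouse, so p-values for exon or intron levels measure the spread between mice. In the intron against exon fits they measure how the difference between the 2 kinds of reads varied from mouse to mouse. The father of each F1 mouse is not named in the labels, so F1 p-values need not measure the spread between fathers.

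The members, the pathway and marker lists and the rule for named genes were chosen with earlier results of these data known. Named were all 9 members; Igf2, Igf2r, Insr, Igfbp1 and Igfals; pathway genes past the threshold in a diet comparison; and the 3 genes most correlated with Igf1 and with Igfbp2. Promoters were RefSeq windows of GRCm38.p6 matched by symbol, for all 9 members. All 9 gene spans had the same coordinates in GENCODE vM21. The labels do not say whether replicate numbers pair the mice, and the first fits used no pairing. 1 gene of the receptor signalling list is not reported here.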

Additional observations from a re-analysis of the deposited data

Results flagged for a closer look

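The change of intron reads with diet differed between the generations for 2 genes named here, by an interaction term fitted in edgeR to all 10 libraries. For Igf1 the F1 change minus the F0 change was 2.32 on the log2 scale (SE 0.20, adjusted p = 7.41e-05), with an F0 change of -2.12, lower in 2 of 2 LPD-fed mice, and an F1 change of 0.20. It was called in all 3 alternative fits and in all 10 fits that each left out 1 mouse, between 2.16 and 2.50, of which 4 left an F0 group with 1 mouse. For Pik3r1 the difference was 1.55 (SE 0.21, adjusted p = 0.00216), from -1.32 in F0 and 0.22 in F1. Generation, age and direct or paternal feeding coincide in this difference and cannot be told apart.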

How the results depend on the processing

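Counts of genes called are given as edgeR gave them first. In F1 exon reads, 164 genes became 375 with DESeq2, 798 with no filter on low counts, 260 with the replicate block, 13 with the exon share as a covariate and 339 with all 4 groups in 1 fit, and the 0 members became 3 with DESeq2 and with no filter, 1 with uniquely matching reads and with the block, and 2 with all groups in 1 fit. In F0, 364 genes became 1343 with no filter, 1391 with the block and 175 with all groups in 1 fit, where the 2 members became 0. For the generation-by-diet difference, 189 genes became 353 with DESeq2 and 890 with no filter, and 0 members became 2 and 3. For intron reads, the 57 F1 genes became 189 with DESeq2, 677 with no filter and 100 with the block; the 499 F0 genes became 1106 with no filter and 803 with the block, and 2 members became 4 with no filter; the 189 interaction genes became 726 and the 1 member became 2 with no filter. The causes were not tested.

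Fits within F0 that left out a mouse set 1 mouse against 2, and the lone mouse was assumed to vary like the other group. Leaving out each mouse in turn gave 18 (without F1-CD 1) to 510 (without F1-CD 3) genes in F1 with 0 to 1 members, 107 (without F0-LPD 2) to 475 in F0 with 0 to 2 members, 19 (without F0-CD 2) to 395 (without F1-CD 3) for the interaction with 0 members, and 793 (without F0-CD 2) to 3030 for F0-CD against F1-CD with 0 to 3 members. In intron reads it gave 5 to 190 genes in F1, 289 to 964 in F0 with 2 to 3 members, and 61 to 306 for the interaction with 1 member. In the intron against exon test it gave 7 to 92 genes in F1 with 0 to 2 members, and 366 to 500 in F0 with 1 member.

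Signs turned only for values that had no call in the first fit. In F1, Ghr became -0.082 with exon plus intron reads, -0.0017 with the block and -0.0051 with all groups in 1 fit, and Igf1r -0.068 and Igfbp4 0.40 with the exon share as a covariate. With exon plus intron reads, Igf1 became -0.60 in F0 and 0.44 in the interaction, Igfbp2 -0.051 in the interaction, and Igfbp7 0.0096 in F0-CD against F1-CD. Igfbp6 introns in F0 became 0.014 with the block. Without single mice, log2 changes ran in F1 from -0.11 to 0.10 for Ghr, -0.058 to 0.090 for Igf1r and -0.18 to 0.12 for Igfbp4; for Igfbp3 from -0.55 to 0.33 in F0, -0.68 to 0.21 in the interaction and -0.66 to 0.22 in F0-CD against F1-CD; and for Igfbp6 from -0.16 to 0.23 in the interaction. In introns they ran in F1 from -0.073 to 0.064 for Igf1r, -0.69 to 0.15 for Igfbp3, -0.15 to 0.0079 for Igfbp4 and -0.13 to 0.20 for Igfbp5, in F0 from -0.39 to 0.51 for Igfbp6 and -0.094 to 0.18 for Sh2b2, and in the interaction from -0.18 to 0.67 for Igfbp3. Intron against exon changes ran in F1 from -0.14 to 0.12 for Igf1r, -0.27 to 0.57 for Igfbp3 and -0.23 to 0.11 for Igfbp4, and in F0 from -0.069 to 0.073 for Ghr and -0.25 to 0.22 for Igfbp5.

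Same-numbered F1 mice had deviations correlated at 0.04, -0.0002 and 0.01, and F0 mice at 0.05. The labels do not say whether the numbers pair mice, and these correlations cannot settle it. With the replicate block, Igfbp6 in F1 was called (-0.60, adjusted p = 0.0323), as was Igfbp4 in F0. Igfbp2, at 3 to 27 reads, is limited by depth.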

Other observations

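Over the 10 libraries, the genes whose log2(CPM + 0.5) followed Igf1 most closely among 13869 compared were Pcdh7 (Pearson r = 0.987), Acta2 (0.977) and Mycl (0.969). Mean Pcdh7 was 69.8, 76.7, 55.5 and 43.9 CPM in F0-CD, F0-LPD, F1-CD and F1-LPD, and mean Mycl 26.0, 26.2, 10.7 and 5.85 CPM. Mean Acta2, which is on the smooth muscle and pericyte marker list, was 70.7, 66.5, 34.8 and 20.8 CPM. The genes most like Igfbp2 among 13870 were Dcaf7 (0.952), Plk1 (0.939) and Gm26558 (0.932), with Plk1 at 1.48, 1.98, 2.51 and 4.83 CPM in the same order of groups. These values were picked as the highest of many over libraries that share groups and are a description only.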
